A study of Mus musculus with 39 samples.

Results

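Secreted and membrane proteins enter the endoplasmic reticulum (ER) through the translocon and leave it in vesicles coated with COPII. The 35 genes described here encode that route: the translocon channel, the TRAP complex, signal peptidase, the signal recognition particle (SRP) with its receptor, and the COPII coat. They were listed by name, and the rule uses no measured value, but the list was drawn up with earlier results of these data known. A gene was measured where a probe set was annotated with its symbol alone, and the brightest such probe set, averaged over the 39 arrays, stands for the gene. By that rule 34 of the 35 were measured, out of 19938 genes in all. Sec61g, the gamma subunit of the channel, was left out because its 4 probe sets are annotated with other genes as well.

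Total RNA from isolated mouse islets was hybridized to 39 Affymetrix Mouse Gene 1.0 ST arrays in 10 groups. Pdx1-creLate mice and their wild-type control littermates came from backcross generation N8, with 4 arrays each. Pdx1-creLate is a transgenic line that expresses Cre from a Pdx1 promoter and also holds a minigene for human growth hormone, as is known for this line, and the labels used here give no sex for either littermate group. The other groups were wild-type C57bl6/J mice at pregnancy days 3.5 (3 arrays), 6.5, 9.5, 12.5, 15.5 and 18.5 (4 arrays each), mice lactating 10 days post partum (4 arrays), and non-pregnant females (4 arrays). The labels count these as biological replicates and give no age and no pooling of animals, and every comparison with non-pregnant mice uses the same 4 arrays. Array medians lay between 5.8 and 6.0 on the log2 scale. The islet hormones were present on every array, with Ins2 at 11.9 to 12.7, Gcg at 13.0 to 14 and Sst at 12.2 to 13.8. Whole islets also hold other cells, and a change in the share of a cell type and a change in RNA per cell cannot be told apart here.

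A nascent secretory protein such as preproinsulin is recognised by SRP as its signal peptide leaves the ribosome. SRP docks at its receptor, the chain passes through the Sec61 channel with help from TRAP, and signal peptidase removes the signal peptide. Folded cargo is then gathered by the COPII coat, in which the GTPase Sar1 recruits the Sec23/Sec24 inner layer and the Sec13/Sec31 outer cage. In beta cells this route carries insulin precursors, and in many secretory cells its genes are targets of the unfolded protein response factors XBP1 and ATF6.

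Promoters were examined for the letters those factors are known to bind, because the members are often described as their targets. RefSeq promoter windows of GRCm38.p6, each of 300 bases around a listed start of a gene, were found for 27 of the 34 measured members and for 15614 genes on the array. The 8 letters TGACGTGG, the core of the unfolded protein response element, were searched on both strands. They occurred in the windows of 3 members, Sec24d, Sec16b and Sec23a, which is 11.1% of the 27, and in 0.916% of the array genes. All 3 matches were on the gene's own strand, at bases -26 to -19 for Sec24d, -44 to -37 for Sec16b and 7 to 14 after the start for Sec23a. These positions count from the start that the window was built on. The Sec24d gene itself is listed from base 123264801, upstream of its whole window, and Sec16b from 157506733, inside its window. The full ER stress response element, CCAAT and CCACG with 9 bases of any kind between them, occurred in 0 of the 27 and in 0.135% of the array genes, and the second form, ATTGG and CCACG with 1 base of any kind between them, in 0 and 0.0576%. The 5 letters CCACG alone, which overlap the core on the opposite strand, occurred in 18 of the 27 (66.7%) and in 42.9% of the array genes. The 3 windows with the core are printed with the match in capitals, beside that of Ssr4, the member with the largest rise in mid-pregnancy, which holds none of these motifs. They are Sec24d at chr3:123267246-123267545 (plus strand), Sec16b at chr1:157506546-157506845 (plus strand, the first of its 2 listed starts), Sec23a at chr12:59011968-59012267 (minus strand) and Ssr4 at chrX:73786773-73787072 (plus strand). A match is a description of these letters in this window and not a mapped binding site.
Sec24d: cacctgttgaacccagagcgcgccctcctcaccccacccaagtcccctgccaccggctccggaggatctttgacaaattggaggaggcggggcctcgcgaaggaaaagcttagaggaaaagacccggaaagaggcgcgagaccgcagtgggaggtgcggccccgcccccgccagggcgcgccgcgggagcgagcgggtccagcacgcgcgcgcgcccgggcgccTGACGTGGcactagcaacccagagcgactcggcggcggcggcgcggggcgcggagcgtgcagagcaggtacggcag
Sec16b: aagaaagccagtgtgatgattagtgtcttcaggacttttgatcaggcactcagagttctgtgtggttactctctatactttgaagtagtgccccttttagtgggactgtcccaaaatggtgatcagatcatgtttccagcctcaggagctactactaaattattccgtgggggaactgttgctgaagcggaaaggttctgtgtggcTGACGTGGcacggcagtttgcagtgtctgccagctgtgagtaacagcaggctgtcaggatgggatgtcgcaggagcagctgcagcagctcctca
Sec23a: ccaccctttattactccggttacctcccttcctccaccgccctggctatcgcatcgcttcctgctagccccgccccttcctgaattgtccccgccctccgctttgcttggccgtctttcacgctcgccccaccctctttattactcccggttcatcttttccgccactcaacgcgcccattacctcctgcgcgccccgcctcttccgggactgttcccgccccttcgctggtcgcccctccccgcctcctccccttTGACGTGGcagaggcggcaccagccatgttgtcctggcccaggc
Ssr4: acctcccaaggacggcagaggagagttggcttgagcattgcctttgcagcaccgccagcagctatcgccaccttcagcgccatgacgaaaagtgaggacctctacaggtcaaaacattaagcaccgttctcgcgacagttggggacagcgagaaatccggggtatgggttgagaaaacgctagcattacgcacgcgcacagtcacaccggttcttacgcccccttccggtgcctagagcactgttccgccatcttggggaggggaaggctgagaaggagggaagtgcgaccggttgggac

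The first comparison set mid-pregnancy (12 arrays, with days 9.5, 12.5 and 15.5 weighted equally) against non-pregnant mice (4 arrays). Of the 34 members, 20 rose and 0 fell, where a gene was called at an adjusted p under 0.05 (limma, Benjamini-Hochberg over all 19938 genes). Among all genes 6.72% rose and 2.52% fell. The median difference of the members was 0.26 on the log2 scale and that of all genes was -0.01. Most members were bright. By mean level Ssr4 lay at percentile 98.4 of all genes, Spcs1 at 99.2 and Srpr at 99.8, while Srp19 lay at 47. The shares of all genes, here and below, include dim genes, and shares for genes as bright as the members were not computed. Without the dimmest 25% of genes 1409 genes rose and 576 fell, against 1340 and 503 with them. After quantile normalization of all 39 arrays 15 members were higher and 2 lower, and with array SD added to the model 19 were higher and 2 lower. Among all genes the first setting gave 1201 higher and 999 lower, and the second 1140 and 880. The rises were small, from 0.21 to 0.57 on the log2 scale, which is 1.16-fold to 1.48-fold. For 10 members all 12 mid-pregnancy arrays lay above all 4 non-pregnant arrays, as they did for 2.36% of all genes. The calls were spread unevenly over the route: 4 of 4 in TRAP, 5 of 5 in signal peptidase, 4 of 7 in SRP and its receptor, 3 of 6 in the channel and 4 of 12 in the COPII coat. In non-pregnant mice the mean levels of these parts, in the same order, were 10.3, 10.2, 9.08, 9.59 and 9.29. Whether level bears on the uneven calls was not tested.

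**Figure D1:**
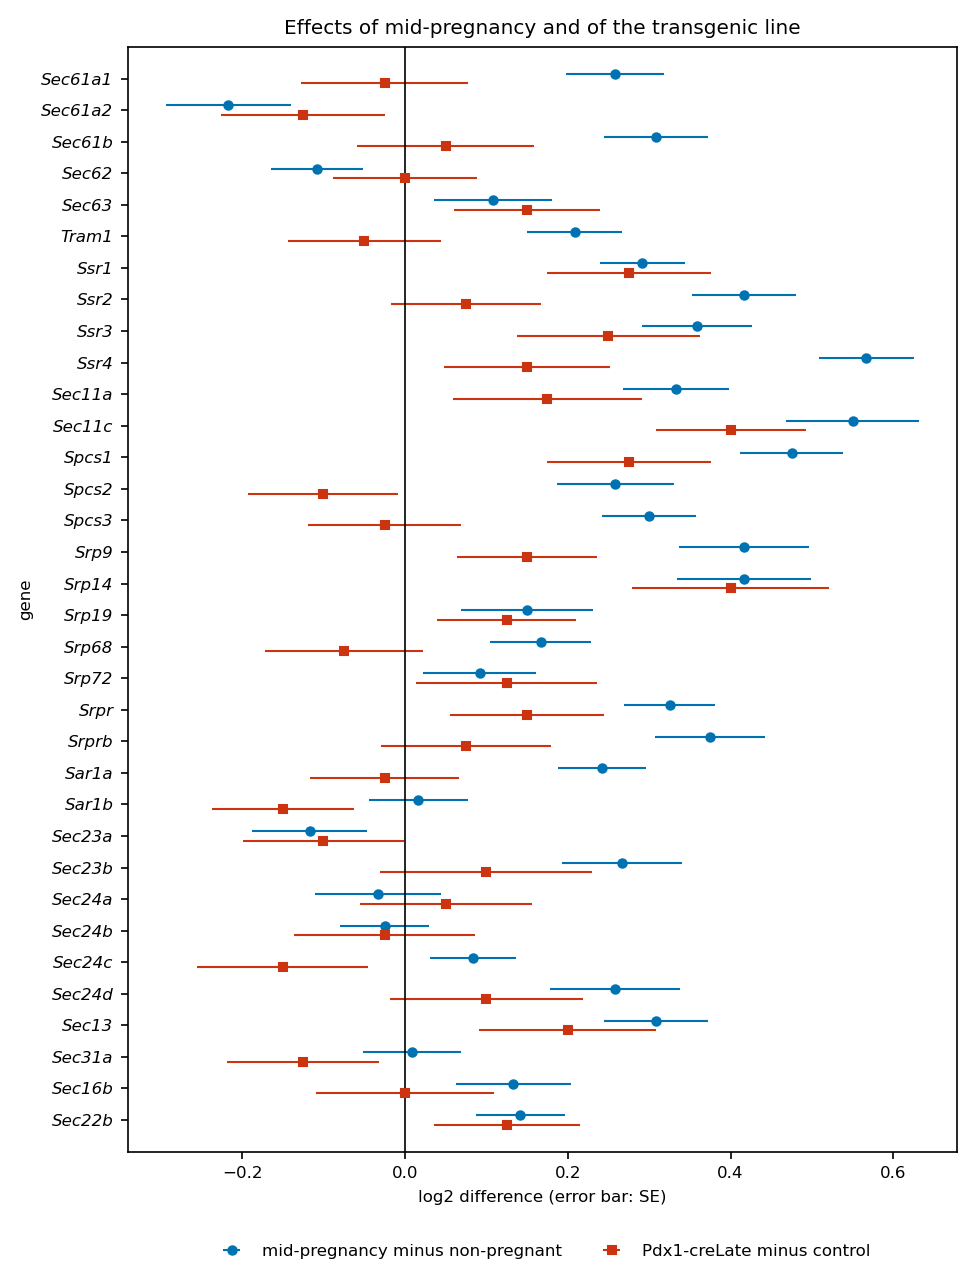
Log2 difference (horizontal axis) of each measured gene (vertical axis) in mid-pregnancy minus non-pregnant islets (circles) and in Pdx1-creLate minus control islets (squares), with the standard error as a bar. The mid-pregnancy points of the TRAP and signal peptidase genes lie to the right of 0, with Ssr4 at 0.57 and Sec11c at 0.55, while Sec31a is at 0.01 and Sec61a2 at -0.22.

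The TRAP complex sits beside the channel and helps particular signal sequences, including that of preproinsulin, to insert. Ssr4, its delta subunit, had 10.4, 10.6, 10.5 and 10.6 at day 9.5, 10.4, 10.5, 10.5 and 10.3 at day 12.5, and 10.4, 10.4, 10.5 and 10.5 at day 15.5, against 9.8, 10.0, 10.0 and 9.8 in non-pregnant mice. Each of the 12 mid-pregnancy arrays was above the highest non-pregnant array. The difference was 0.57 ± 0.06 (SE; 1.48-fold, adjusted p = 1.26e-08). Ssr2, the beta subunit, ranged over the 12 arrays from 11 to 11.4 against 10.7 to 10.9 and rose by 0.42 ± 0.06 (adjusted p = 1.72e-05). Ssr3, the gamma subunit, rose by 0.36 ± 0.07 (adjusted p = 0.000346). Ssr1, the alpha subunit, which is known to be needed for insulin biosynthesis, rose by 0.29 ± 0.05 (adjusted p = 0.000185). The groups did not overlap for any of these 4 genes.

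Signal peptidase cuts the signal peptide from the entering chain. Sec11c, 1 of its 2 alternative catalytic subunits, had 9.5, 9.7, 9.8 and 9.9 at day 9.5, 9.7, 9.6, 9.7 and 9.3 at day 12.5, and 9.6, 9.5, 9.7 and 9.8 at day 15.5, against 9.0, 9.2, 9.1 and 9.1 in non-pregnant mice. The groups did not overlap, and the lowest of the 12 was 1 array of day 12.5. Sec11c rose by 0.55 ± 0.08 (1.46-fold, adjusted p = 1.16e-05). The other catalytic subunit, Sec11a, rose by 0.33 ± 0.07 (adjusted p = 0.000534), with values of 10.0 to 10.5 against 9.8 to 10.1 that overlapped. Spcs1, a small accessory subunit, had 10.9 to 11.2 against 10.5 to 10.6 and rose by 0.48 ± 0.06 (1.39-fold, adjusted p = 1.97e-06). Spcs3, the accessory subunit known to be required for cleavage, rose by 0.30 ± 0.06 (adjusted p = 0.00044). The accessory subunit Spcs2 rose by 0.26 ± 0.07 (adjusted p = 0.0163), with 10.6 on the lowest mid-pregnancy array and 10.7 on the highest non-pregnant array.

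In SRP and its receptor the called genes were Srp9, Srp14, Srpr and Srprb. Srp9 and Srp14 form the dimer that slows elongation. Srp14 ranged over the 12 arrays from 8.2 to 8.7 against 7.9 to 8.2 and rose by 0.42 ± 0.08 (adjusted p = 0.000625). Srp9 rose by 0.42 ± 0.08 (adjusted p = 0.000436), but a second probe set for Srp9, which is dimmer, differed by 0.15. The choice of probe set therefore sets the size given for Srp9. Srpr, the GTPase subunit of the receptor, had 11.9, 12, 12 and 12 at day 9.5, 11.8, 11.9, 11.8 and 11.8 at day 12.5, and 11.9, 11.8, 11.8 and 11.8 at day 15.5, against 11.4, 11.6, 11.6 and 11.6 in non-pregnant mice. No array of the groups overlapped, and Srpr rose by 0.33 ± 0.06 (1.25-fold, adjusted p = 0.0001). Srprb, which anchors the receptor in the membrane, rose by 0.38 ± 0.07 (adjusted p = 0.000174), with 9.4 on both the lowest mid-pregnancy array and the highest non-pregnant array. The other 3 were not called. Srp68 and Srp72, which form the larger protein pair of the particle, differed by 0.17 (95% interval 0.04 to 0.29, adjusted p = 0.0913) and 0.09 (-0.05 to 0.23, adjusted p = 0.512). Srp68 was called higher at days 9.5 and 18.5 taken singly, and both calls were lost after quantile normalization and with array SD added to the model. Srp19, which binds the SRP RNA, differed by 0.15 (-0.02 to 0.32, adjusted p = 0.316).

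Among the channel genes, 1 alpha subunit and the beta subunit rose. Sec61a1, the main pore subunit, was at 11.1 on all 4 non-pregnant arrays and between 11.1 and 11.5 on the 12 mid-pregnancy arrays, 11 of which were above. It rose by 0.26 ± 0.06 (adjusted p = 0.00379). Sec61b, the beta subunit, rose by 0.31 ± 0.06 (adjusted p = 0.000987), and its 3 probe sets differed by 0.31, 0.35 and 0.33. Tram1, which contacts the entering chain, rose by 0.21 ± 0.06 (adjusted p = 0.0169). Sec61a2, the alternative pore subunit, had 7.0 to 7.6 with a median of 7.35 in mid-pregnancy, against 7.3 to 7.6 with a median of 7.6 in non-pregnant mice. Its difference was -0.22 ± 0.08 (adjusted p = 0.0763), and it was called lower after quantile normalization of all 39 arrays (-0.25, adjusted p = 0.0137), with array weights and with array SD added to the model. Sec62 and Sec63, which serve short and late-entering precursors and bring the chaperone BiP to the channel, differed by -0.11 (95% interval -0.22 to 0.01) and 0.11 (-0.04 to 0.26), and neither was called. After quantile normalization Sec62 was called lower (-0.17, adjusted p = 0.0148).

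In the COPII coat 4 of 12 genes rose: Sar1a, Sec23b, Sec24d and Sec13. Sar1a, the GTPase that starts coat assembly, had 10.2 to 10.6 against 10.1 to 10.2 and rose by 0.24 ± 0.05 (adjusted p = 0.00239). Sec23b of the inner coat rose by 0.27 ± 0.07 (adjusted p = 0.0162) and Sec24d, a cargo-binding subunit, by 0.26 ± 0.08 (adjusted p = 0.0353). The Sec24d call was lost in 3 of 10 alternatives (quantile normalization, array SD in the model, all 39 arrays in 1 model) and without any 1 of 8 of the 16 arrays, with adjusted p up to 0.166. Sec13 of the outer cage, which also has a role in the nuclear pore, rose by 0.31 ± 0.06 (adjusted p = 0.00101). Its 12 arrays lay between 8.5 and 8.8, all above the 8.3 to 8.4 of non-pregnant mice. Its cage partner Sec31a had 10.4 to 10.7 against 10.5 to 10.7 and a difference of 0.01 (95% interval -0.11 to 0.13), with overlapping arrays. Sar1b differed by 0.02 (-0.11 to 0.14), Sec24b by -0.03 (-0.14 to 0.09), Sec24a by -0.03 (-0.19 to 0.12) and Sec24c by 0.08 (-0.02 to 0.19). Sec23a differed by -0.12 (-0.26 to 0.03), and was called lower with array SD added to the model (-0.20, adjusted p = 0.0112). The scaffold Sec16b differed by 0.13 (-0.01 to 0.28) and the SNARE Sec22b by 0.14 (0.03 to 0.25, adjusted p = 0.111).

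The genes of a family were also compared with each other within each array, so that a shift shared by both genes of a pair cancels. A difference in spread between arrays does not cancel, and mean array SD ranged from 1.79 (day 15.5) to 1.91 (day 9.5) in mid-pregnancy, against 1.82 in non-pregnant mice. These 10 pairs were chosen after their values were seen, and p is from an exact two-sided permutation test over the 12 and 4 arrays, adjusted over the 10 pairs. The difference Sec23b minus Sec23a was 2.4 to 2.9 in mid-pregnancy, against 2.1 to 2.2 in non-pregnant mice, with no overlap. It widened by 0.38 (adjusted p = 0.011). Sec61a1 minus Sec61a2 widened by 0.48 (adjusted p = 0.0137) and Sar1a minus Sar1b by 0.23 (adjusted p = 0.0137). Sec11c minus Sec11a was -0.63 in mid-pregnancy, against -0.85 in non-pregnant mice, so this gap narrowed by 0.22 (adjusted p = 0.0173). Sec24d rose relative to each other Sec24 gene, by 0.28 over Sec24b (adjusted p = 0.0137), by 0.29 over Sec24a (adjusted p = 0.0173) and by 0.18 over Sec24c (adjusted p = 0.0453). Sec24b and Sec24a moved by 0.01 relative to each other (adjusted p = 1), with 0.3 to 0.5 in mid-pregnancy and 0.3 to 0.6 in non-pregnant mice. Sec24c differed by 0.11 relative to Sec24b (adjusted p = 0.0173) and by 0.12 relative to Sec24a (adjusted p = 0.0672). Such a difference shows unequal change of the probe sets and gives no ratio of their transcripts.

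**Figure D2:**
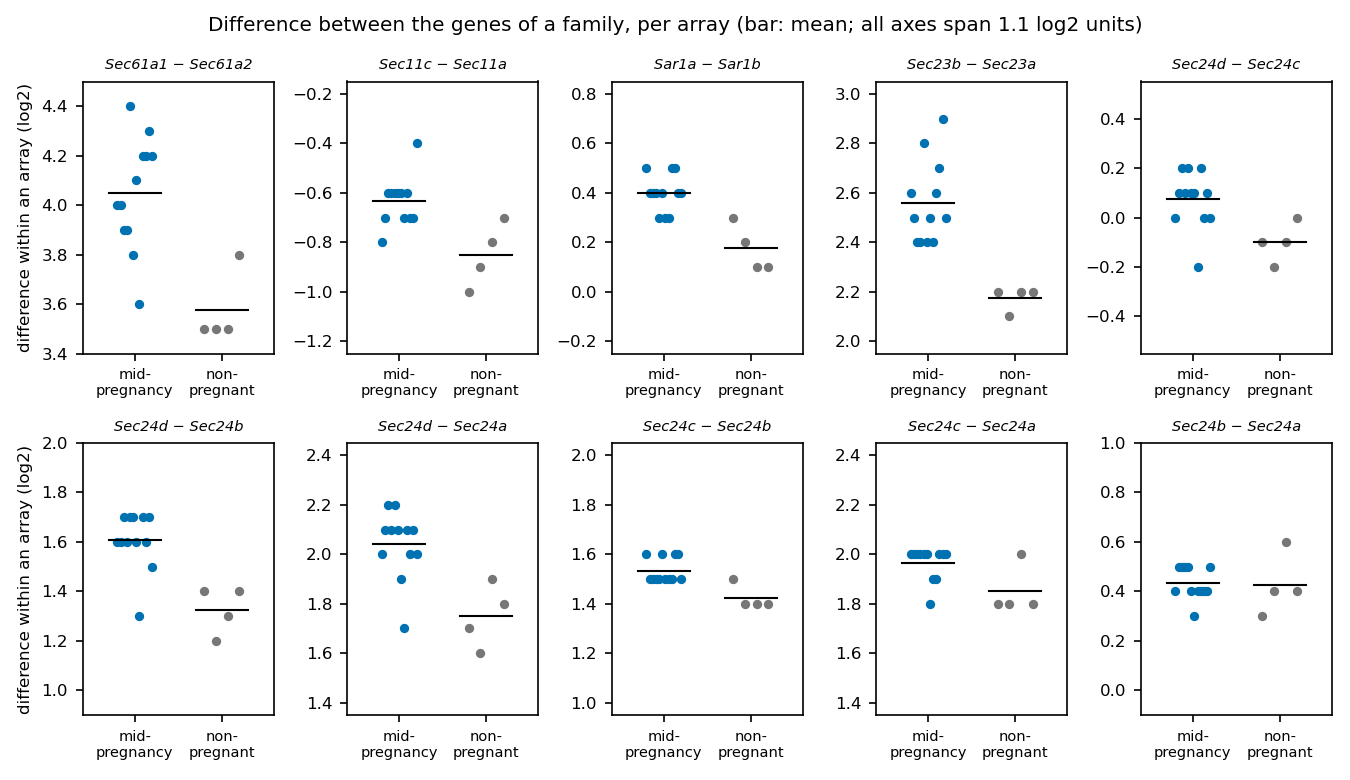
Difference in log2 value between 2 genes of a family within each array (vertical axis) in 12 mid-pregnancy and 4 non-pregnant arrays (points; the bar is the mean), with every axis spanning the same height. For Sec23b minus Sec23a the lowest mid-pregnancy array is at 2.4 and the highest non-pregnant array at 2.2, while Sec24b minus Sec24a spans 0.3 to 0.5 and 0.3 to 0.6.

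No member was called before day 9.5. At day 3.5, 0 members were called in either direction, against 0.0201% of all genes higher and 0.0251% lower. Their median difference from non-pregnant mice was 0.14, against 0.02 for all genes, and 31 of the 34 differences lay above 0. Of the 34, 10 had an unadjusted p under 0.05, as had 20.3% of all genes. With so few genes called on the 3 arrays of day 3.5, the lack of calls does not date the first rise. With limma's array weights 1 member was called at day 3.5. At day 6.5, 0 were called, against 0.502% and 0.12% of all genes, with a median of 0.08 and 4 members at an unadjusted p under 0.05, as had 11.3% of all genes. Ssr4 stood at 10.1, 10.1 and 10.0 at day 3.5 and at 10.1, 10.0, 10.1 and 10.0 at day 6.5, against 9.8 to 10.0 in non-pregnant mice. Spcs1 stood at 10.8, 10.7 and 10.7, and at 10.8, 10.6, 10.7 and 10.5, against 10.5 to 10.6. Srp9 had 8.7, 8.3, 8.2 and 8.4 at day 6.5, against 8.7, 8.7, 8.6 and 8.7 in non-pregnant mice, a difference of -0.28 that was not called. In the COPII coat the largest difference of day 3.5 was that of Sec16b, 0.32 ± 0.09 (adjusted p = 0.0952).

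At day 9.5, of the 34 members, 21 rose and 0 fell, against 11.6% and 7.74% of all genes, and the median difference was 0.33, the largest of the 6 days. With array SD added to the model it was 0.19, against 0.24 at day 15.5 and 0.19 at day 18.5, so that order was not kept. All 4 arrays of day 9.5 lay above all 4 non-pregnant arrays for 23 members, as they did for 8.97% of all genes. Ssr4 and Sec11c each rose by 0.63 (SE 0.07 and 0.10, 1.54-fold), and Ssr2, Srp9 and Srprb by 0.55. Srprb had 9.7, 9.7, 9.9 and 9.9 at day 9.5, against 9.4, 9.3, 9.1 and 9.2 in non-pregnant mice, with no overlap. Of the 6 pregnancy days, day 9.5 had the highest mean for 24 members, day 3.5 for 7, day 18.5 for 2 (Sec24d and Sec16b) and day 15.5 for 1 (Sec61b). These peak days were not counted over all genes and not repeated under the alternatives. The spread of values over all genes was widest on the day 9.5 arrays, with a mean SD per array of 1.91 against 1.82 in non-pregnant mice. With that SD as a covariate 10 of the 34 were called higher, and after quantile normalization of all 39 arrays 13 were. Among all 19938 genes these settings gave 545 and 1314 higher, against 2321 in the main model.

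At day 12.5, 12 members rose and 0 fell, against 4.08% and 1.19% of all genes, and none of the 12 COPII genes was called. Ssr4 rose by 0.53 ± 0.07 (adjusted p = 4.74e-06) and Spcs1 by 0.48 ± 0.08 (adjusted p = 8.86e-05). The count was 7 without replicate 1, 2 or 3 of day 12.5 or replicate 1 of the non-pregnant group, and was 16 without replicate 4 of day 12.5. At day 15.5, 13 members rose and 3 fell, against 3.7% and 4.53% of all genes. Sec61b had 8.8, 8.9, 8.7 and 8.9 at day 15.5, against 8.2, 8.4, 8.3 and 8.5 in non-pregnant mice, and rose by 0.48 ± 0.08 (adjusted p = 8.69e-05). The 3 that fell were Sec61a2, Sec62 and Sec23a. Sec61a2 had 7.1, 7.1, 7.1 and 7.0 at day 15.5, against 7.6, 7.6, 7.6 and 7.3, with no overlap, and fell by 0.45 (SE 0.09, adjusted p = 0.00181). Sec23a fell by 0.28 (adjusted p = 0.0434) and Sec62 by 0.23 (adjusted p = 0.0381). Both calls were lost when arrays were centred on their medians and with array SD added to the model. With 1 array left out, the Sec23a call was kept in 2 of 8 runs and the Sec62 call in 4 of 8.

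**Figure D3:**
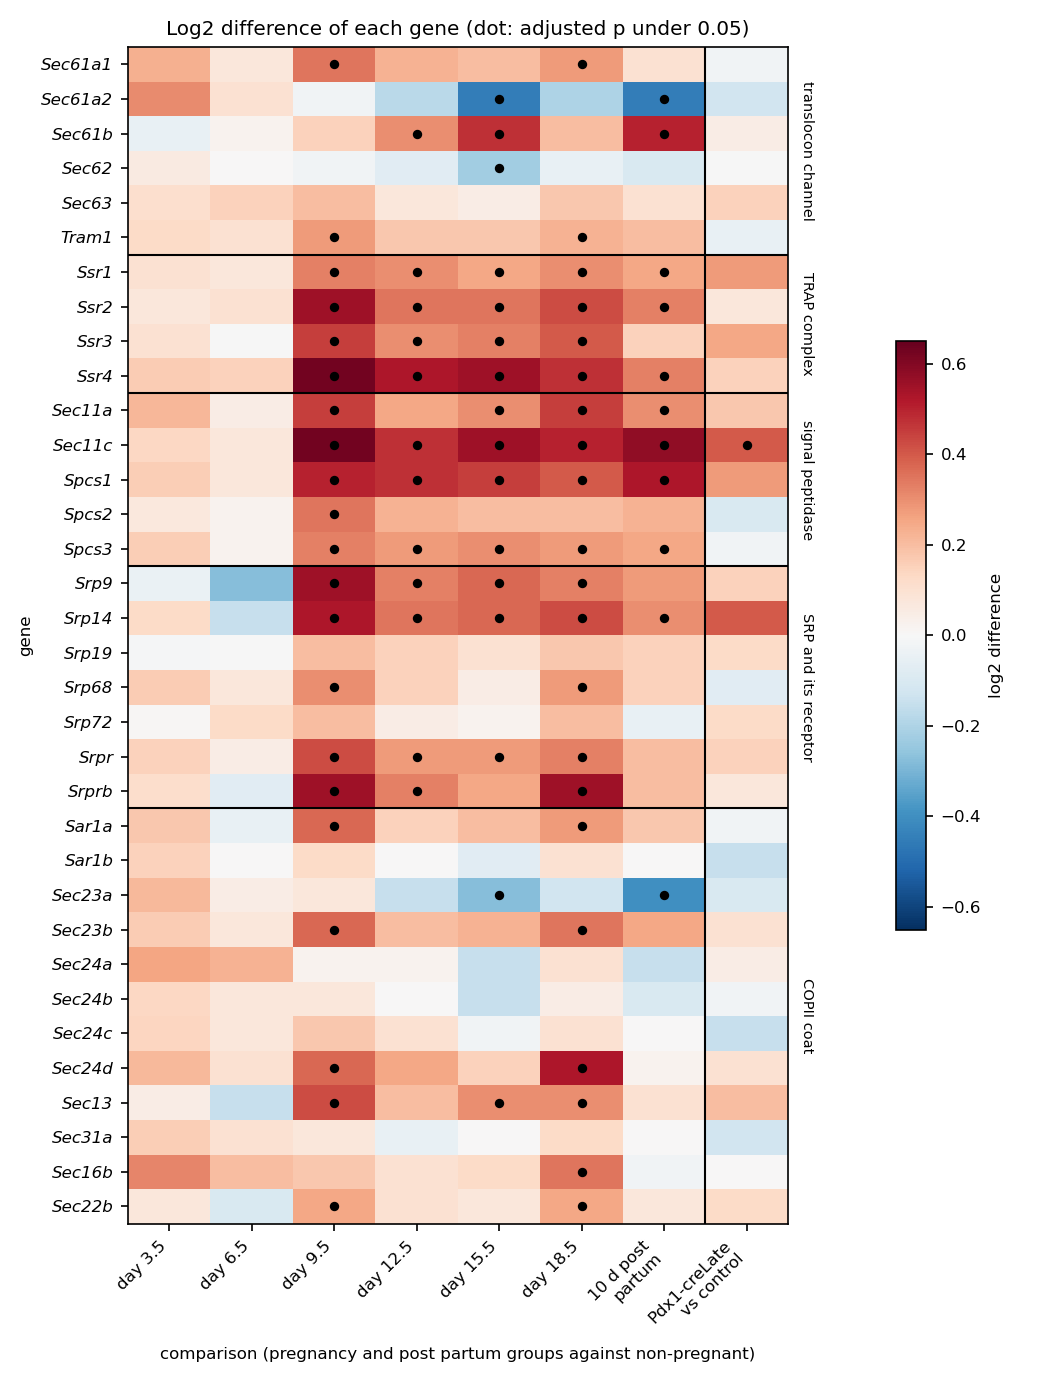
Log2 difference (colour) of each measured gene (vertical axis) at each pregnancy day and 10 days post partum against non-pregnant mice, and in Pdx1-creLate against control mice (horizontal axis), with a dot where the adjusted p was under 0.05. The 4 TRAP rows are dotted from day 9.5 to day 18.5, the signal peptidase row of Spcs2 is dotted at day 9.5 alone, and Sec61a2 and Sec23a turn blue by day 15.5, at -0.45 and -0.28.

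At day 18.5, the last day before birth, 21 members rose and 0 fell, against 8.59% and 2.5% of all genes, and the median difference was 0.28. The COPII coat had its highest count here, with 6 of 12 called. These were Sar1a, Sec23b, Sec24d, Sec13, the scaffold Sec16b and the SNARE Sec22b. At day 9.5 the count was 5, the same genes without Sec16b. That rank was not kept with array SD added to the model. Of the 6 only Sec24d then stayed called, while Sar1a and Sec13 stayed called at day 9.5. After quantile normalization only Sec24d and Sec16b of the 6 stayed called. Sec24d had 10.4, 10.2, 10.2 and 10.2 at day 18.5, against 9.9, 9.6, 9.7 and 9.7 in non-pregnant mice. The groups did not overlap, and Sec24d rose by 0.53 ± 0.10 (1.44-fold, adjusted p = 0.000331). Sec16b, a scaffold of ER exit sites, had 8.6, 8.3, 8.6 and 8.5, against 8.3, 8.1, 8.1 and 8.1. The lowest array of day 18.5 equalled the highest non-pregnant array, and Sec16b rose by 0.35 ± 0.09 (adjusted p = 0.00599). Srprb rose by 0.55 ± 0.08 (1.46-fold, adjusted p = 1.5e-05). With array SD added to the model 8 members were called higher and 1 lower, and after quantile normalization 10 were higher and 3 lower, the 3 being Sec61a2, Sec62 and Sec23a. Among all genes the first setting gave 716 higher and 458 lower, and the second 1056 and 820. Across the 6 pregnancy days, limma's moderated F-test called 24 of the 34 members as unequal between days, against 38.6% of all genes.

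**Figure D4:**
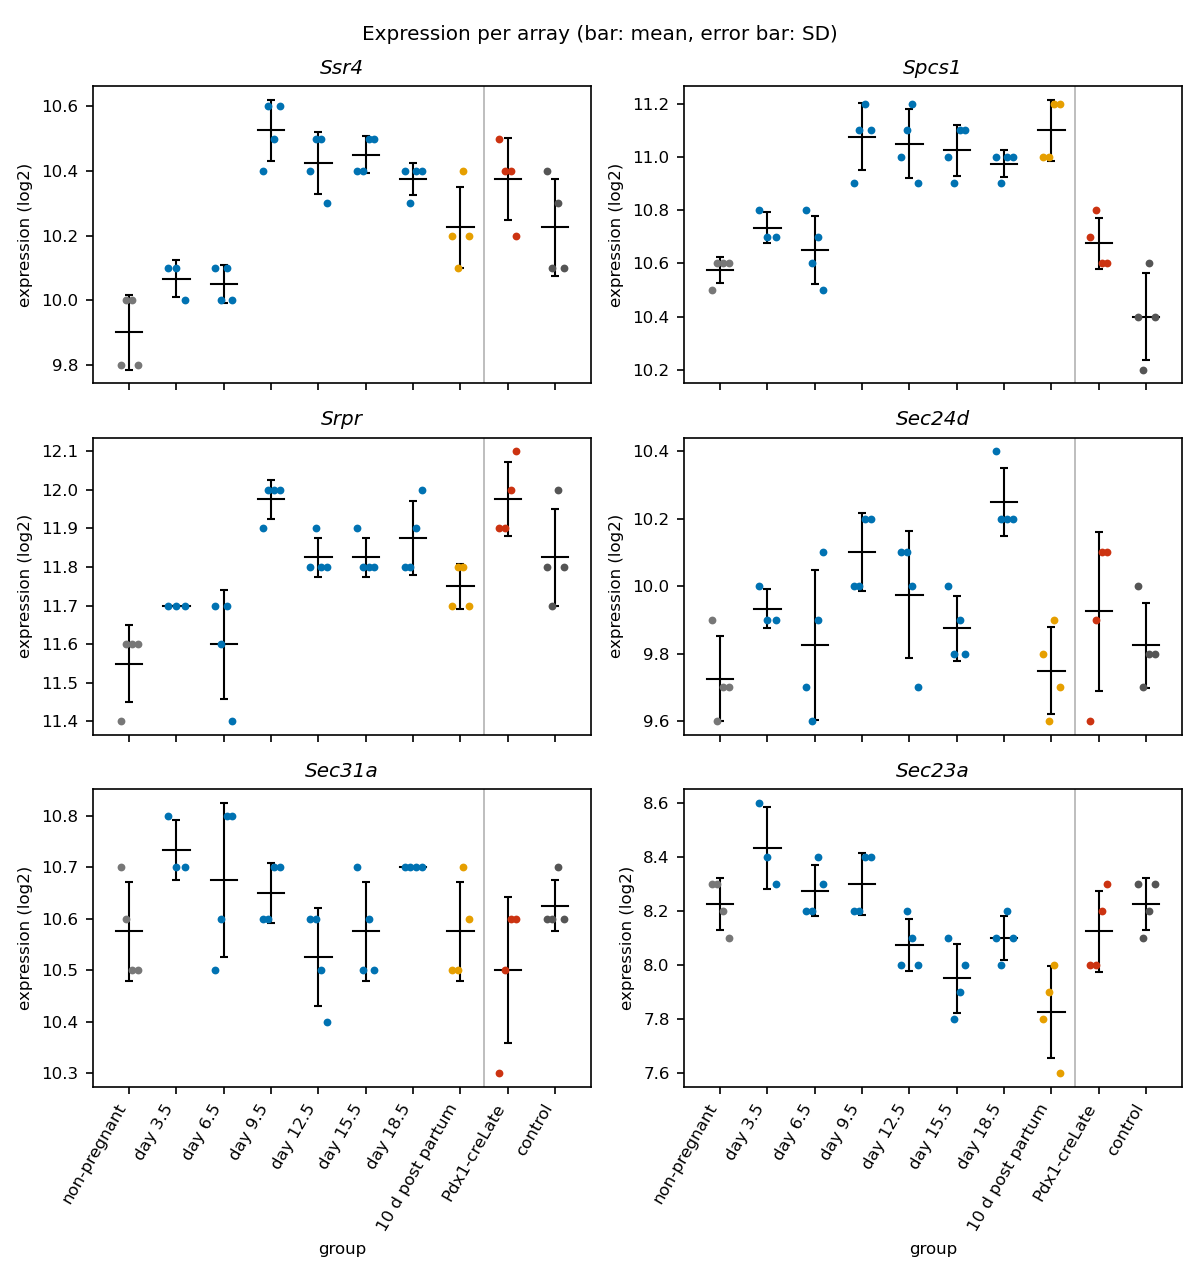
Log2 value on each array (points) with the group mean and SD (bars) for 6 members in the 10 groups (horizontal axis), each panel on its own vertical scale. For Ssr4, Spcs1 and Srpr every array of day 9.5 lies above every array of day 6.5, Sec24d is highest at day 18.5 with 10.2 to 10.4, Sec31a stays within 10.3 to 10.8, and Sec23a is lowest 10 days post partum with 7.6 to 8.0.

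In lactating mice 10 days post partum, 9 members rose and 2 fell relative to non-pregnant mice, against 4.46% and 7.78% of all genes. The members still higher were mostly in TRAP (3 of 4) and signal peptidase (4 of 5). Srp14 was also called higher, but its call was kept in only 6 of 10 alternatives and in 1 of 8 runs with 1 array left out. Spcs1 had 11, 11, 11.2 and 11.2 post partum, against 10.5, 10.6, 10.6 and 10.6 in non-pregnant mice, and rose by 0.53 ± 0.08 (1.44-fold, adjusted p = 2.23e-05). Sec11c had 9.7, 9.5, 9.8 and 9.7, against 9.0, 9.2, 9.1 and 9.1, and rose by 0.58 ± 0.10 (1.49-fold, adjusted p = 0.000205). Sec61b rose by 0.50 ± 0.08 (adjusted p = 4.22e-05). In each of these 3 the post partum arrays were all above the non-pregnant arrays. Sec23a had 7.8, 7.9, 8.0 and 7.6 post partum, against 8.3, 8.3, 8.2 and 8.1, and fell by 0.40 (SE 0.09, adjusted p = 0.00217). Sec61a2 had 7.0, 7.0, 7.3 and 7.0, against 7.6, 7.6, 7.6 and 7.3, and fell by 0.45 (SE 0.09, adjusted p = 0.00156). None of the 12 COPII genes was called higher, but Sar1a and Sec23b were with array SD added to the model (0.25 and 0.37), after quantile normalization and with trend and robust eBayes. With array SD added, 18 of the 34 members were higher and 2 lower. Among all genes 983 were then higher and 900 lower, against 890 and 1551 without it. All 7 endothelial markers were below their non-pregnant means (median -0.28, 2 called) and so were all 7 stellate cell markers (median -0.30, 2 called), and their part in the members' changes was not tested.

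The step across birth set 10 days post partum against day 18.5. Here 1 member rose and 9 fell, against 11.8% and 18.4% of all genes, so the share of falling members was near that of all genes. Sec24d had 9.8, 9.6, 9.9 and 9.7 post partum, against 10.4, 10.2, 10.2 and 10.2 at day 18.5, with no overlap, and fell by 0.50 (SE 0.10, adjusted p = 0.00093). Sec16b had 8.1, 8.3, 8.1 and 8.0, against 8.6, 8.3, 8.6 and 8.5, and fell by 0.38 (SE 0.09, adjusted p = 0.003). Srprb fell by 0.35 (adjusted p = 0.00351), Sec23a by 0.28 (adjusted p = 0.0188), and Ssr3, Srp72, Sec61a2 and Sec24a by 0.25 each. Sec22b fell by 0.18 (adjusted p = 0.047), and Sec61b rose by 0.30 ± 0.08 (adjusted p = 0.00644). The 3 members whose promoter windows held TGACGTGG, shown above, were among the 9 that fell. This observation was made after the values were seen and was not tested. How many other array genes with TGACGTGG fell was not counted. Of the 3, only Sec24d was called higher in mid-pregnancy. The arrays differed in spread between these groups, with a mean SD of 1.77 post partum and 1.89 at day 18.5. All 7 endothelial markers fell across birth as well, and their part in the members' changes was not tested. After quantile normalization 2 members were higher and 1 lower, against 970 and 1009 among all genes. With the SD as a covariate 0 of the 10 calls were kept, Srp72, Sec23a and Sec24a changed sign, and only 7 genes were higher and 5 lower among all genes.

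In Pdx1-creLate islets 1 member rose and 0 fell relative to control littermates, against 2.86% and 3.72% of all genes, and the median difference was 0.08. The 1 called member was Sec11c, which had 9.9, 9.8, 9.8 and 9.7 in Pdx1-creLate, against 9.5, 9.3, 9.3 and 9.5 in control mice. The groups did not overlap, and Sec11c rose by 0.40 ± 0.09 (1.32-fold, adjusted p = 0.0154). The mean of 23 acinar markers was 9.29 ± 0.86 in Pdx1-creLate and 8.63 ± 0.60 in control islets (SD, n = 4 each), and with that mean as a covariate the call was lost (0.33, adjusted p = 0.0801). The call was also lost without Pdx1-creLate replicate 1 (adjusted p = 0.0566) or without control replicate 3 (adjusted p = 0.0539). Srp14 had 8.7, 8.5, 8.6 and 8.1, against 8.0, 8.2, 8.1 and 8.0, and differed by 0.40 ± 0.12 (adjusted p = 0.0689). Ssr1 had 10.4, 10.3, 10.5 and 10.7, against 10.2, 10.2, 10.1 and 10.3, a difference of 0.28 (95% interval 0.06 to 0.49, adjusted p = 0.138). Spcs1 differed by 0.28 as well (0.06 to 0.49, adjusted p = 0.138). Spcs3 differed by -0.03 (-0.23 to 0.18) and Sec61a1 by -0.03 (-0.24 to 0.19). When all 39 arrays shared 1 model, 4 members were called higher, Sec11c, Srp14, Ssr1 and Spcs1, and the calls over all genes were 957 higher and 1527 lower, against 571 and 742 with the 8 littermate arrays alone.

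The effect of the Pdx1-creLate line and that of mid-pregnancy were then compared directly, as a difference between 2 differences with separate reference arrays. In 4 members the Pdx1-creLate effect was lower than the pregnancy effect and in 0 it was higher, against 3.86% and 1.63% of all genes. Ssr4 differed by 0.15 in Pdx1-creLate islets and 0.57 in mid-pregnancy, a gap of -0.42 ± 0.10 (adjusted p = 0.0071). Ssr2 had 0.08 and 0.42 (gap -0.34 ± 0.10, adjusted p = 0.0345), Spcs3 had -0.03 and 0.30 (gap -0.33 ± 0.09, adjusted p = 0.0306), and Spcs2 had -0.10 and 0.26 (gap -0.36 ± 0.11, adjusted p = 0.0486). For Sec11c the gap was -0.15 (95% interval -0.40 to 0.10, adjusted p = 0.591) and for Srp14 -0.02 (-0.30 to 0.27), so no difference between the effects was detected in these. The 2 effects were measured in mice of different strain labels, which cannot be told apart from the effects themselves. Of the 4, only the Ssr4 gap stayed called in every alternative run, left-out arrays included, and the count of 4 was 1 without Pdx1-creLate replicate 2, control replicate 4 or non-pregnant replicate 1, and 2 without control replicate 1 or 2 or non-pregnant replicate 4.

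**Figure D5:**
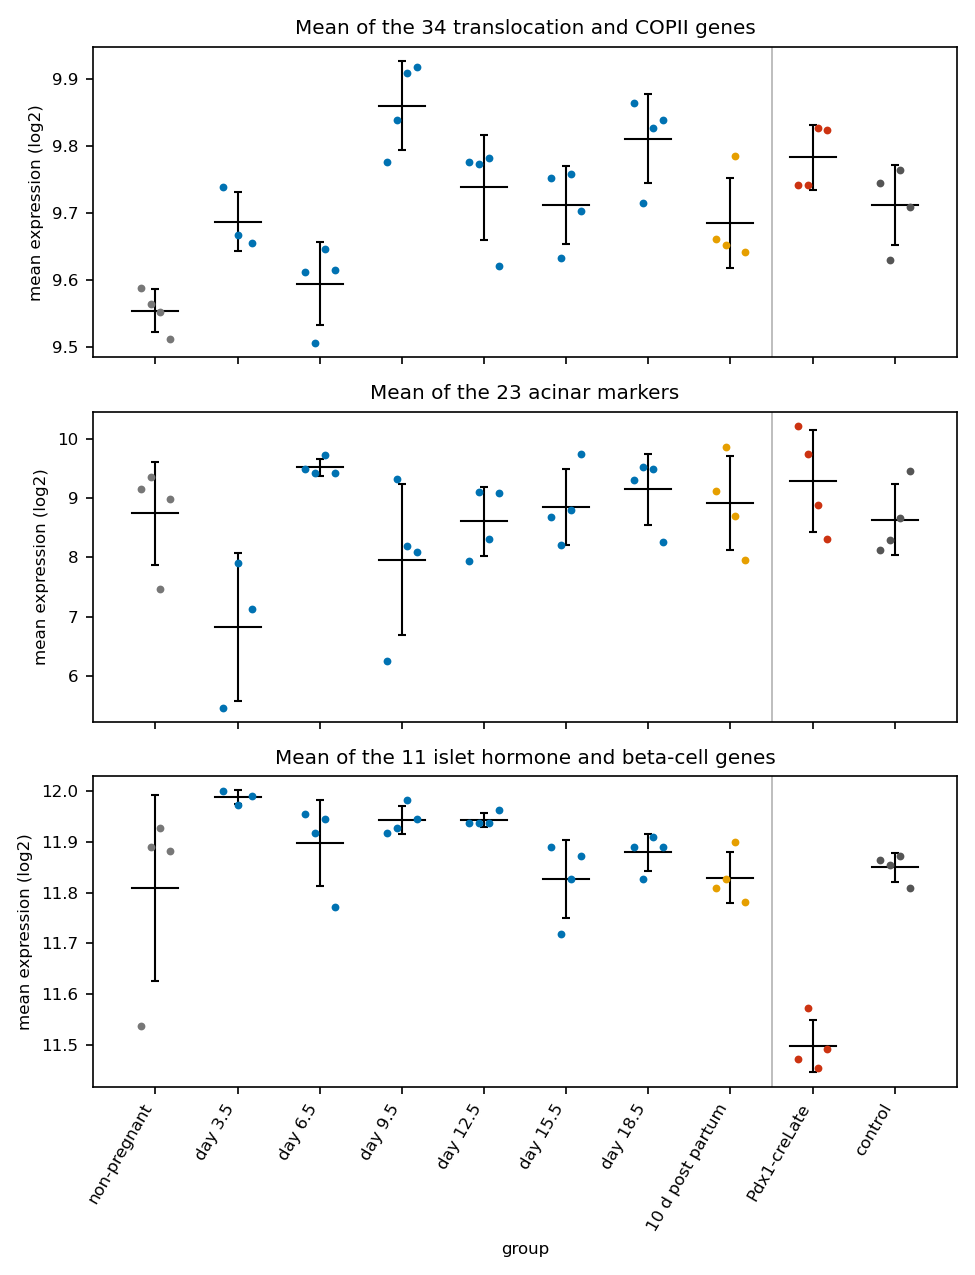
Mean log2 value on each array (points) with the group mean and SD (bars) over the 34 members, 23 acinar markers, and 11 islet hormone and beta-cell genes in the 10 groups (horizontal axis). The members' mean is highest at day 9.5 with 9.86 and lowest in non-pregnant mice with 9.55, while the acinar mean spans 5.47 to 9.73 over the arrays of pregnancy days 3.5 and 6.5.

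The members' mean over all 34 genes was 9.86 ± 0.07 at day 9.5 and 9.81 ± 0.07 at day 18.5, against 9.55 ± 0.03 in non-pregnant mice (SD, n = 4 each). Acinar cells, the enzyme-secreting cells around the islets, use the same route heavily, so their markers are given beside these levels. The mean of the 23 acinar markers was 7.96 ± 1.27 (SD) at day 9.5, then 8.61 ± 0.58 at day 12.5 and 8.85 ± 0.64 at day 15.5, against 8.74 ± 0.86 in non-pregnant mice, and ranged there from 7.46 to 9.35. It was 6.83 ± 1.25 (SD, n = 3) at day 3.5 and 9.52 ± 0.15 at day 6.5, the 2 days without a called member. With the acinar mean as a covariate 20 members were called in mid-pregnancy, the same number as without it. The mean of 11 islet hormone and beta-cell genes was 11.94 ± 0.03 at day 9.5, against 11.81 ± 0.18 in non-pregnant mice, and 11.50 ± 0.05 in Pdx1-creLate, against 11.85 ± 0.03 in control islets, where 5 of the 11 were lower.

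Other genes of the pathway were counted from lists that, like the members, were chosen with earlier results of these data known. In mid-pregnancy 9 of 12 oligosaccharyltransferase genes, which attach sugar chains to entering proteins, rose and 0 fell. Among all genes 6.72% rose and 2.52% fell, which is the background for each list in this comparison. Dad1, a core subunit, rose by 0.51, Ostc by 0.46, Krtcap2 by 0.45 and Rpn1 by 0.41. Of 24 cargo receptors and COPII partners 12 rose and 0 fell, with Ergic2 at 0.63, Tmed3 and Tmed5 at 0.58 each and Mcfd2, which works in a cargo receptor for clotting factors, at 0.48. Of 15 genes of the COPI coat and retrieval 7 rose and 0 fell, among them Copz2 (0.49) and the retrieval receptors Kdelr3 (0.48) and Kdelr1 (0.39). Of 13 ER-Golgi SNAREs and tethers 5 rose, led by Bet1 (0.39) and Trappc1 (0.36). Of 13 genes of the ER membrane complex and tail-anchor insertion 5 rose, led by Emc3 (0.26). None of 4 other translocation genes was called. In each of these lists 0 genes fell.

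Of 13 regulators of the secretory programme 6 rose in mid-pregnancy, against 6.72% of all genes. Ern1, which encodes the ER stress sensor IRE1 that splices Xbp1 RNA, rose by 0.75 ± 0.07 (adjusted p = 1.68e-09), at 10.00 in mid-pregnancy and 9.25 in non-pregnant mice. Xbp1 rose by 0.27 ± 0.07 and the chaperone gene Hspa5, which encodes BiP, by 0.28 ± 0.06 (adjusted p = 0.00138). Bhlha15, a factor of secretory cells that is also 1 of the acinar markers, rose by 0.68, while the other acinar markers were not called. Atf6 differed by 0.05 and Creb3l2 by -0.10, and neither was called. At day 18.5 Ern1 had its largest difference, 1.1 ± 0.09 (adjusted p = 3.16e-11), and across birth it fell by 0.68 (adjusted p = 2.13e-05). With array SD added to the model only 7 of all genes were higher and 5 lower across birth, and the Ern1 values of that model are not given here. In Pdx1-creLate islets 2 of the 13 rose, against 2.86% of all genes: Ern1 by 0.63 ± 0.12 (adjusted p = 0.00583) and Atf4 by 0.35, while Xbp1 differed by 0.25 (adjusted p = 0.153) and Hspa5 by -0.03.

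The same lists were counted at single times. At day 9.5, 11 of 12 oligosaccharyltransferase genes, 15 of 24 cargo receptors, 11 of 15 COPI genes and 8 of 13 SNAREs and tethers rose, against 11.6% of all genes, led by Kdelr3 (0.78), Tmed5 (0.73) and Dad1 (0.68). At day 18.5 the counts were 8, 13, 7 and 6, against 8.59% of all genes, and Ergic2 rose by 0.70 and Tmed5 and Mcfd2 by 0.65 each. None of the list counts was repeated under the alternatives. With array SD added to the model 545 of all genes rose at day 9.5, against 2321 without it. At day 18.5 the numbers were 716 and 1712. At day 6.5 the p24 cargo receptor Tmed9 fell by 0.40 (adjusted p = 0.037), and Copz2 rose by 0.35. Post partum 8 cargo receptors were higher than in non-pregnant mice, against 4.46% of all genes, led by Tmed5 (0.60) and Mcfd2 (0.58), with 3 oligosaccharyltransferase genes and 1 COPI gene, Copz2 (0.40). Across birth 4, 8, 5 and 5 genes of the same 4 lists fell and 0 rose, against 18.4% and 11.8% of all genes. With array SD added to the model nearly all such calls over all genes were lost (7 higher and 5 lower). In Pdx1-creLate islets 3 of 24 cargo receptors rose, against 2.86% of all genes: Ergic2 by 0.53, Mcfd2 by 0.50 and Tmed5 by 0.48, and 0 of 12 oligosaccharyltransferase genes were called. For that list the difference between the effects was called in 5 of 12 genes, against 3.86% of all genes, each lower for Pdx1-creLate, with Krtcap2 at -0.55 and Rpn1 at -0.46.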

How the data were processed

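Islet total RNA was labelled from random hexamers and hybridized to Affymetrix Mouse Gene 1.0 ST arrays, 1 array per sample, per the labels' protocols. The deposited values are log2 signals that the authors made by RMA in Affymetrix Expression Console, per the submitters' processing notes; tool versions and the set of arrays that shared a normalization are not given in the sources used here. Values were deposited with 1 decimal, so that within-group spread (a median SD of 0.0957 over members) is close to the rounding step. Of 35556 probe sets, 21789 had 1 gene symbol, 1621 several and 12146 none, and the brightest single-symbol probe set per gene left 19938 genes. Precision is limited by the number of arrays. No 2 arrays held identical values (pairwise r 0.9728 to 0.9956).

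Groups were compared with limma 3.58.1 in R 4.3.3 (lmFit, eBayes), with 31 C57bl6/J arrays in 1 model, the 8 littermate arrays in a second, and all 39 arrays together for the difference between effects. The threshold was an adjusted p of 0.05 (Benjamini-Hochberg over all genes). Family pairs used an exact permutation test in scipy 1.17.1. The limma tests of Pdx1-creLate against control and of mid-pregnancy against non-pregnant mice were tried on simulated data with independent normal noise. The other comparisons, the alternatives and the permutation test were not simulated. Any member could be named, and of each list up to 4 called genes per comparison by size of difference, plus Xbp1, Atf6, Ern1, Creb3l2 and Hspa5. The members and lists were chosen with earlier results of these data known. Alternatives were the gene filter, quantile normalization, centring, variance model, array weights, probe sets, covariates, the replicate number as a block, left-out arrays and all arrays in 1 model. Promoter windows came from RefSeq on GRCm38.p6.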

Additional observations from a re-analysis of the deposited data

Results flagged for a closer look

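In 5 of 116 groups of 4 arrays, 1 array lay far from the other 3 by Dixon's criterion. Groups whose range was under 0.25 were not tested, and gene values had 1 decimal. The criterion's nominal rate of 1 in 20 groups therefore does not apply here. In each of the 5 the other 3 arrays held the same value. Sec61a2 was at 7.3 on replicate 3 of 10 days post partum, against 7.0 on the other arrays of that group. It was also at 7.3 on replicate 4 of the non-pregnant mice, against 7.6 on the others. Spcs2 was at 10.6 on replicate 4 of day 12.5, against 10.9. Srp9 was at 9.0 on replicate 1 of day 9.5, against 9.3. Sec24c was at 9.5 on replicate 1 of Pdx1-creLate, against 9.9.

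For 4 members the Pdx1-creLate effect and the mid-pregnancy effect differed by the test of the difference itself. The Pdx1-creLate effect minus the mid-pregnancy effect was -0.42 for Ssr4, -0.36 for Spcs2, -0.34 for Ssr2 and -0.33 for Spcs3 on the log2 scale.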

How the results depend on the processing

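Counts of called members were compared over the alternatives. Quantile normalization of all 39 arrays gave 13 at day 9.5, 7 at day 12.5, 13 at day 18.5, 3 across birth and 2 for the difference between effects. Array SD added to the model gave 10 at day 9.5, 9 at day 18.5, 20 post partum against non-pregnant mice and 0 across birth, where Srp72 (0.00902), Sec23a (0.0837) and Sec24a (0.0413) changed sign. For Pdx1-creLate the count was 3 with trend and robust eBayes, 2 with array weights, 0 with the acinar covariate and 4 with all 39 arrays in 1 model. Trend and robust eBayes gave 17 post partum, array weights gave 1 at day 3.5, and centring or the acinar covariate gave 1 for the difference between effects. The mid-pregnancy count was 17 to 23 in these settings, and 15 of its 20 members were called in every alternative, all but Sec61a1, Tram1, Spcs2, Sec23b and Sec24d. Over all genes quantile normalization gave 1201 higher and 999 lower there, centring 1493 and 229, against 1340 and 503 otherwise. The cause of these shifts was not tested.

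Leaving out 1 array gave 0 to 2 members for Pdx1-creLate, 18 to 20 for mid-pregnancy, 0 at days 3.5 and 6.5, 21 to 22 at day 9.5, 7 to 16 at day 12.5, 11 to 16 at day 15.5, 17 to 22 at day 18.5, 9 to 12 post partum, 4 to 14 across birth, 1 to 5 for the difference between effects and 21 to 26 among the pregnancy days. Across birth the count was 4 without post partum replicate 4, 5 without post partum replicate 1 or day 18.5 replicate 4, and 6 without post partum replicate 2 or day 18.5 replicate 1 or 3. The replicate number as a block gave 20 in mid-pregnancy, 12 post partum and 25 among the days, and elsewhere the main count. Deviations of same-numbered arrays had a median r of 0.019 over 105 C57bl6/J pairs and 0.046 over 4 littermate pairs. For other-numbered arrays the median r was 0.007 and -0.025. No pairing by number was detected, but so few littermate pairs cannot exclude one.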
